A study of Mus musculus with 6 samples.

Results

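The endoplasmic reticulum (ER) chaperones and the genes of the unfolded protein response were followed as a list of 33 genes, found by symbol among the 24982 genes of the series. All 33 had a row in every count table. The study lowered YY1, a zinc finger transcription factor, in KMWT1, a mouse glioma cell line grown in serum, by transfection with an siRNA pool against YY1. RNA was taken 48 hours later from 3 YY1 siRNA samples (4, 5 and 6) and 3 control siRNA samples (1, 2 and 3), all of the 1 cell line and all transfected. The labels do not state whether cultures were independent, and every p-value here therefore rests on sample-to-sample spread that may be technical only.

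The ER folds proteins that are secreted or placed in membranes. When unfolded proteins build up there, the sensors ATF6, IRE1 (gene Ern1) and PERK (gene Eif2ak3) signal to the nucleus. ATF6 and the spliced form of XBP1, made by IRE1, then raise the transcription of chaperones, disulfide isomerases and the machinery of ER-associated degradation, which returns misfolded proteins to the cytosol. Much of this transcription runs through the ER stress response element (ERSE), in which a CCAAT box bound by NF-Y is followed by a spaced CCACG. YY1 has been reported to act with ATF6 at the promoter of Hspa5, the main ER chaperone gene, in stressed cells.

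Yy1 fell to 79.2 ± 1.86 CPM (counts scaled to the TMM-normalised library size) in YY1 siRNA samples, against 127 ± 0.826 CPM in control siRNA samples (SD, n = 3 each, log2 fold change -0.68, SE 0.064, edgeR adjusted p 0.00154). Counts in genes lay between 15738457 and 20644057 per sample, lowest in YY1 siRNA sample 6. The names of the deposited tables mark 5 samples as combined and not sample 6, so that its values and this difference in handling cannot be told apart. Of 7 glioma and progenitor markers, 5 averaged 10 CPM or more, among them Vim, Sox2 and Cd44, while Olig2 had 0 counts. Of 5 astrocyte markers, 4 stayed under 1 CPM in every sample, Gfap among them, and the summed level of the 5 was 7.29 to 8.62 CPM in YY1 siRNA samples and 7.51 to 10.5 CPM in control siRNA samples, nearly all from S100b. All 5 microglia and macrophage markers stayed under 1 CPM in every sample. Of 4 endothelial markers 3 did so, and Cdh5 averaged 47.4 ± 4.08 CPM in YY1 siRNA samples and 53.3 ± 3.71 CPM in control siRNA samples (SD, n = 3). The plasma cell genes Jchain and Mzb1 stayed under 1 CPM, and Sdc1 stood at 104 ± 4.54 CPM in YY1 siRNA samples and 103 ± 1.21 CPM in control siRNA samples. Fibroblast and pericyte markers were present in both groups, at a summed 804 to 1020 CPM in YY1 siRNA samples and 954 to 1110 CPM in control siRNA samples. Most of this sum is Col3a1, while Dcn, at 11.9 ± 0.751 CPM in YY1 siRNA samples and 9.68 ± 0.759 CPM in control siRNA samples, lay higher with no overlap (edgeR unadjusted p 0.0125, adjusted p 0.348). The part of these markers in the members' values was not tested.

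The promoter windows of the list were searched for stress elements, and the sequences below carry matches. RefSeq promoter windows (GRCm38.p6), from 250 bases before the start to 50 bases from it, were found for 28 of the 33 members, 29 windows in all. Hyou1, Manf, Atf6, Derl1 and Sec61a1 had none. The ERSE was searched on both strands as CCAAT, any 9 bases and CCACG. It lay in the windows of 9 members, against 0.119% of all 32851 windows. The shorter ERSE-II, ATTGG, any base and CCACG, lay in 2 members, against 0.0365% of windows. No member held both kinds, so no matches overlapped. The members were listed for their known role in this response, so these counts describe the list and carry no test. The windows below are those of the chaperones Hspa5, Hsp90b1, Pdia6 and Calr, the degradation genes Syvn1, Derl3 and Herpud1 and the co-chaperone Dnajb11. Capitals mark the element with its spacer, and CGTGG before ATTGG is an ERSE on the opposite strand.
Hspa5 (chr2:34771840-34772089, plus strand): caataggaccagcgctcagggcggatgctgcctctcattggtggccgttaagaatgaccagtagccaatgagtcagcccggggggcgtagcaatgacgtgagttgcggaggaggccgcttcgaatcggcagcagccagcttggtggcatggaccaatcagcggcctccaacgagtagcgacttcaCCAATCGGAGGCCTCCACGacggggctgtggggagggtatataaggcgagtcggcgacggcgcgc
Hsp90b1 (chr10:86705525-86705664, minus strand): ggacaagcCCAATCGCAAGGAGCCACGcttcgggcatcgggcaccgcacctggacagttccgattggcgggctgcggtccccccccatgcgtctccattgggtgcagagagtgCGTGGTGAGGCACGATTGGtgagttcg
Pdia6 (chr12:17266483-17266517, plus strand): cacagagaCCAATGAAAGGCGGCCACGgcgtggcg
Calr (chr8:84847067-84847101, minus strand): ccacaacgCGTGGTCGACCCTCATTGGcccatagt
Syvn1 (chr19:6046524-6046558, plus strand): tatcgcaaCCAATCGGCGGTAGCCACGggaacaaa
Derl3 (chr10:75893234-75893268, plus strand): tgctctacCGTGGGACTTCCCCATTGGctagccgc
Herpud1 (chr8:94386369-94386395, plus strand): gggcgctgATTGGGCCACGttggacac
Dnajb11 (chr16:22857844-22857870, plus strand): cggcggcgATTGGCCCACGcctggctg

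Hsp90b1 held 2 such elements, at bases -212 to -194 and -107 to -89 from the start, counting the first transcribed base as 0. The exact ERSE of Hspa5 lay at -65 to -47. Those of Calr, Canx, Creld2, Derl3, Dnajc3 and Pdia6 lay between -162 and -80, and that of Syvn1 at -44 to -26. The unfolded protein response element, searched as TGACGTGG, lay in Sec24d alone among members, against 0.676% of all windows. The YY1 motif AANATGGCG, on either strand, lay in Os9 alone among members, 3.45% of their windows, against 2.38% of all windows and 5.04% of the windows of tested genes. In the wider list described further on it lay in 6.09% of windows. A missing match says only that these letters are not in the window.

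**Figure D1:**
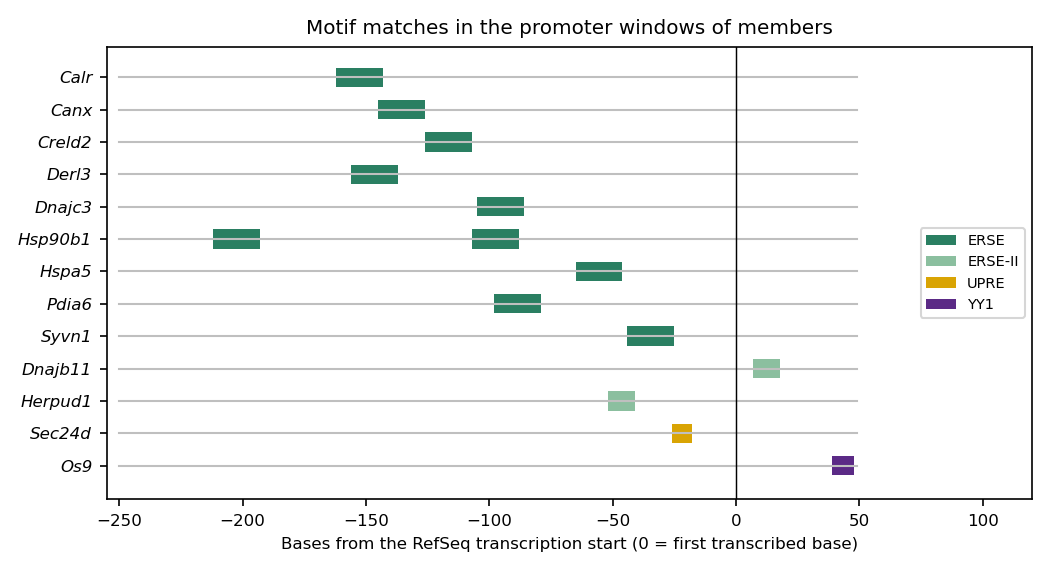
Motif matches in the promoter windows of the members that hold any, in bases from the RefSeq start (x axis), 1 line per gene. Coloured blocks are matches to the ERSE, ERSE-II, UPRE and YY1 motif. The ERSE blocks lie upstream of the start, between -212 and -26, and the YY1 block of Os9 lies downstream of it, at 39 to 47.

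The list was expressed almost in full. Of the 33 members, 32 passed the filter on low counts and were tested. Derl3, a derlin used in ER-associated degradation and known from secretory tissues, had 0 counts in all 6 samples, which allows up to 0.145 to 0.191 CPM per sample (3 counts, counting error only). Its promoter nevertheless holds an exact ERSE, printed above. Levels between genes are compared as CPM per kilobase of exonic length, the union of a gene's annotated exons. The lengths of the transcripts present were not measured, and the order depends on the length used. In CPM alone Hsp90b1 stood above P4hb, at 2443 against 2192 in YY1 siRNA samples and 2425 against 2056 in control siRNA samples. Per kilobase P4hb, a protein disulfide isomerase, was highest at 766 ± 60.2 CPM per kilobase in YY1 siRNA samples and 719 ± 9.70 in control siRNA samples (SD, n = 3). Hsp90b1, the ER member of the Hsp90 family, followed at 606 ± 33.1 and 601 ± 6.03 CPM per kilobase in YY1 siRNA and control siRNA samples. Hspa5 followed these at 443 ± 23.9 and 432 ± 6.66 CPM per kilobase in YY1 siRNA and control siRNA samples. The 6 samples of each of these 3 genes did not overlap with those of the next gene in the order.

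Ssr3, a translocon-associated subunit, the lectin chaperone Canx and the disulfide isomerase Pdia3 came next, at 263 ± 24.1, 240 ± 15.7 and 235 ± 12.7 CPM per kilobase in YY1 siRNA samples. In control siRNA samples they stood at 244 ± 12.2, 237 ± 1.17 and 237 ± 7.99, and neighbours among these 3 overlapped. The sensors stood far lower. Atf6 had 16.3 ± 0.703 CPM per kilobase in YY1 siRNA samples and 16.9 ± 0.479 in control siRNA samples, and Ern1 had 14.5 ± 1.31 in YY1 siRNA samples and 14.5 ± 0.495 in control siRNA samples. The lowest expressed member was Pdia5, a disulfide isomerase, at 4.09 ± 0.314 CPM per kilobase in YY1 siRNA samples and 3.92 ± 0.400 in control siRNA samples.

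**Figure D2:**
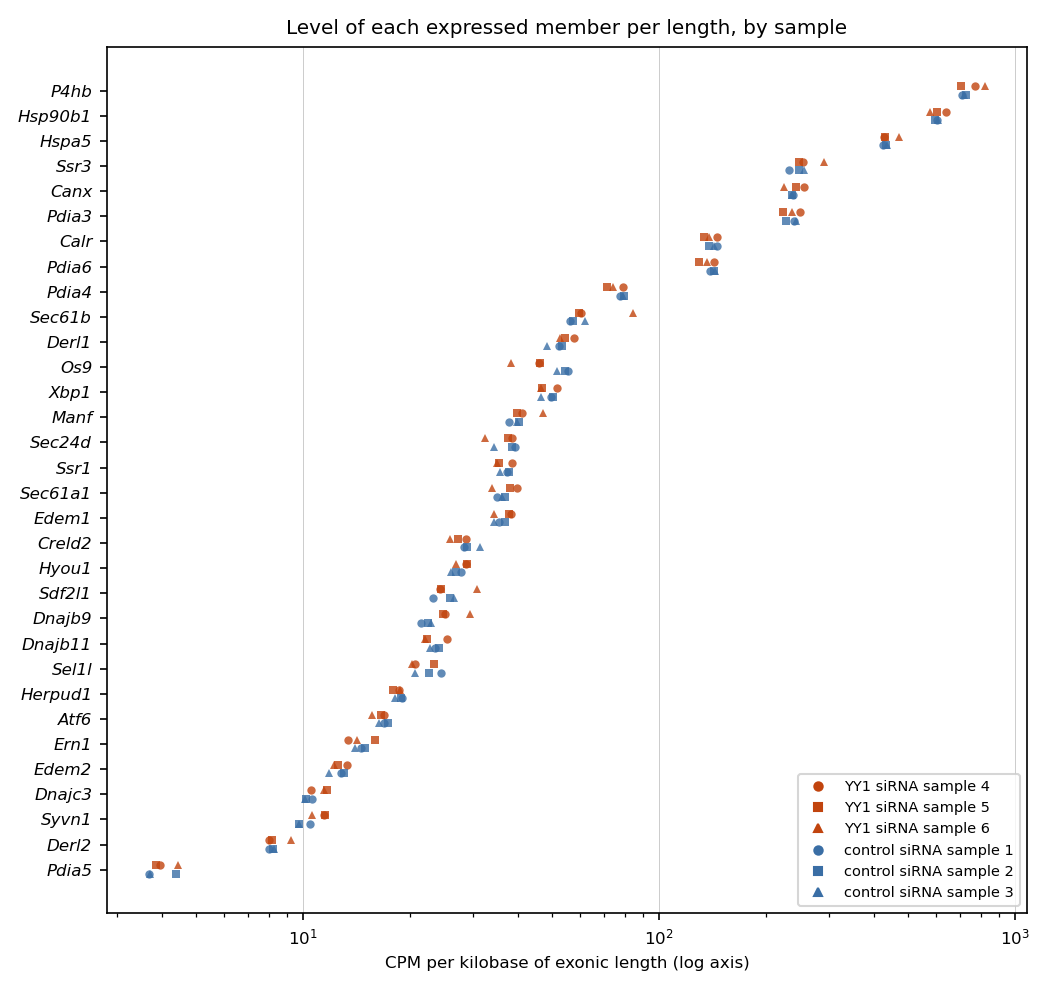
Level of each of the 32 expressed members per kilobase of exonic length (x axis, CPM per kilobase, log axis), in order of the mean over 6 samples. Points are single samples, YY1 siRNA above control siRNA. P4hb, Hsp90b1 and Hspa5 stand at the top and Pdia5 at the bottom, and the samples of a gene lie close together beside the spread between genes.

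With Yy1 lowered, no member of the list passed the test over all genes. The edgeR quasi-likelihood test called 0 of 32 members at an adjusted p under 0.05, against 0.00823% of the 12148 genes tested, which is Yy1 alone. DESeq2 called 0 members, against 0.152% of the 12532 genes to which it gave an adjusted p, and limma-voom called 0. The smallest adjusted p among members was 0.254 with edgeR, for Os9. At an unadjusted p under 0.05 there were 2 of 32 members with DESeq2, against 924 of the 12148 genes tested. With edgeR there were 3 members (9.38%), against 10.8% of all genes tested. The members' share is near that background. In bulk RNA such as this, fewer cells of a type and less RNA per cell cannot be told apart. Of these 3 members, 2 had a fitted change above 0 and 1 below, against 5.38% and 5.46% of all genes. The samples of the groups did not overlap for 2 members higher with YY1 siRNA and 1 lower, against 7.36% and 8.91% of all genes.

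How large a change could have gone unseen was read from 95% intervals, at a fold of 0.623 for Yy1 mRNA. These rest on sample-to-sample spread that may be technical only, so they may be too narrow for independent cultures. The 95% interval of the fold change lay within 1.5-fold, up or down, in 32 of 32 tested members, against 82.2% of all genes tested. The width of an interval also depends on the counts of the gene, and the members were not matched to genes of like level. The lowest bound was a fold of 0.716, for Os9, and the highest 1.42, for Sec61b. The median log2 fold change over tested members was 0.018, with 19 above 0 and 13 below, and over all genes tested it was 0.00070. The members' median was -0.0023 without YY1 siRNA sample 4, -0.0031 with scaling by library size alone and 0.042 with the no-gene share as covariate. The level of the list, the median of its members' log2 CPM relative to each member's mean over the 6 samples, was 0.046, -0.031 and -0.029 in YY1 siRNA samples 4, 5 and 6. In control siRNA samples 1, 2 and 3 it was 0.0014, 0.0068 and -0.032, so the groups overlapped.

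**Figure D3:**
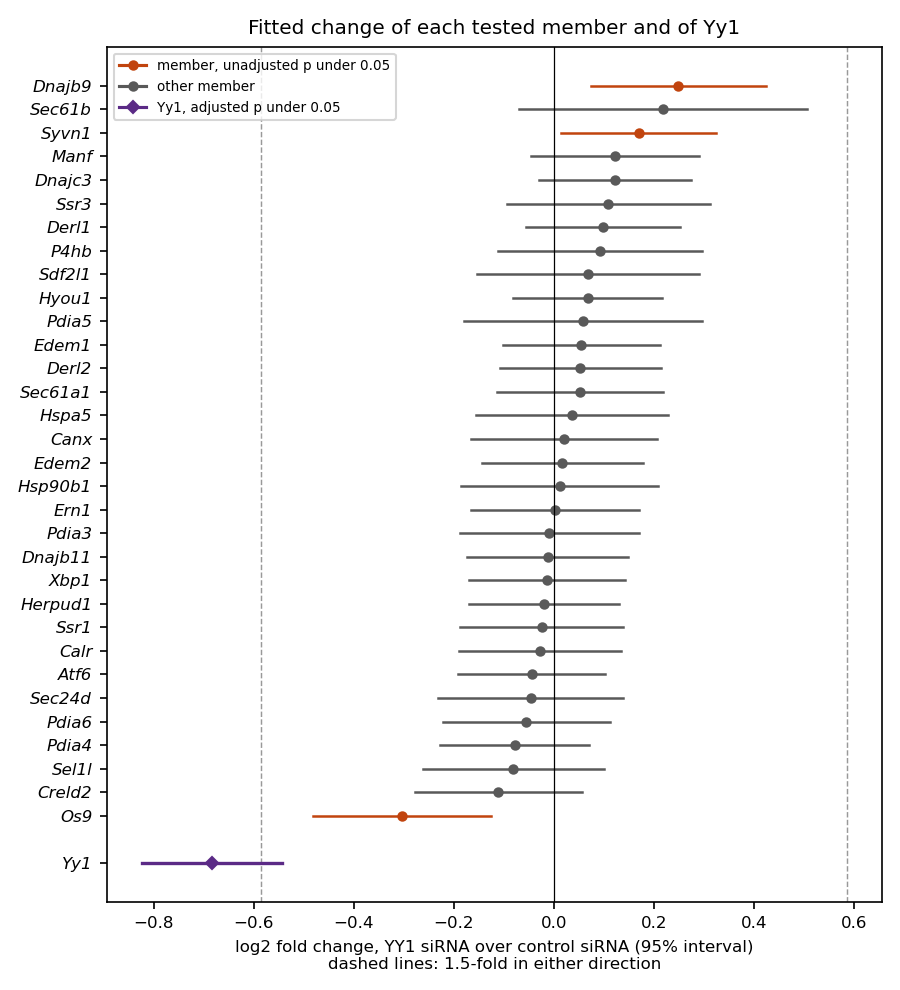
Fitted log2 fold change of YY1 siRNA over control siRNA with its 95% interval (x axis) for the 32 tested members and for Yy1. Intervals of all members stay inside the dashed lines at 1.5-fold, while Yy1 stands apart at -0.68. The 3 members in orange had an unadjusted p under 0.05, and none passed over all genes.

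The Hsp70 and Hsp90 system of the ER lay close to control. Hspa5 (BiP), the Hsp70 of the ER that also holds the sensors inactive, lies on chromosome 2 from 34771970 to 34777547 (mm10). It had 1811, 1820 and 1990 CPM in YY1 siRNA samples 4, 5 and 6, against 1796, 1837 and 1850 CPM in control siRNA samples 1, 2 and 3. Samples 4 and 5 lie among the control samples and sample 6 lies above them. The log2 fold change of Hspa5 was 0.036 (SE 0.089, 95% interval of the fold 0.897 to 1.17, edgeR adjusted p 0.898). Hsp90b1 (GRP94) had 2582, 2433 and 2316 CPM in YY1 siRNA samples and 2437, 2397 and 2441 CPM in control siRNA samples, which lie between the extremes of the YY1 siRNA samples. The fitted log2 fold change of Hsp90b1 was 0.011 (edgeR adjusted p 0.973, SE 0.091). Hsp90b1 counts are less certain, since 632 of its exonic bases overlap 3 other annotated genes and it shares a near-identical stretch with 1 of them, a transcribed pseudogene.

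Dnajb9 (ERdj4), a J-domain co-chaperone of Hspa5 and a known target of XBP1, gave the highest fitted change of the list. It had 63.9, 62.8 and 75.1 CPM in YY1 siRNA samples 4, 5 and 6, and 54.6, 57.1 and 58.1 CPM in control siRNA samples 1, 2 and 3. Each YY1 siRNA sample lay above each control siRNA sample, with sample 6 the farthest. The log2 fold change was 0.25 (SE 0.081, fold 1.19, 95% interval 1.05 to 1.34, edgeR unadjusted p 0.00917, adjusted p 0.317). Without YY1 siRNA sample 6 it was 0.16 (edgeR adjusted p 0.571).

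The other co-chaperones had intervals that cover 1. Dnajc3 (p58IPK), a co-chaperone known to restrain PERK, stood at 57.6 ± 3.02 CPM in YY1 siRNA samples and 53.0 ± 1.17 CPM in control siRNA samples (SD, n = 3). Dnajb11 (ERdj3), which carries the ERSE-II shown above, stood at 75.1 ± 5.88 and 75.8 ± 2.24 CPM in YY1 siRNA and control siRNA samples. Its partner Sdf2l1 stood at 29.3 ± 4.09 and 27.9 ± 1.92 CPM in YY1 siRNA and control siRNA samples. Hyou1 (GRP170), the nucleotide exchange factor of Hspa5, had 203 ± 7.99 CPM in YY1 siRNA samples and 194 ± 5.90 CPM in control siRNA samples. Of the secreted stress proteins, Manf had 151 ± 13.6 CPM in YY1 siRNA samples and 139 ± 4.60 CPM in control siRNA samples. Creld2 had 37.3 ± 1.98 CPM in YY1 siRNA samples and 40.3 ± 2.24 CPM in control siRNA samples, the most negative log2 fold change of this group at -0.11 (SE 0.077). Over these 9 genes the median log2 fold change was 0.067, with 7 above 0. Dropping YY1 siRNA sample 6 gave 0.040 with 6 above 0, and dropping control siRNA sample 1 gave 0.023.

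Disulfide isomerases and lectin chaperones, which form disulfide bonds and hold glycoproteins during folding, gave 0 of 7 members with an edgeR unadjusted p under 0.05. Over all genes tested the share was 10.8%. P4hb had 2192 ± 172 CPM in YY1 siRNA samples and 2056 ± 27.8 CPM in control siRNA samples (SD, n = 3). Pdia3, which works with the lectin chaperones, had 739 ± 40.0 and 743 ± 25.1 CPM in YY1 siRNA and control siRNA samples, and Pdia6 had 510 ± 24.9 and 530 ± 8.12 CPM in YY1 siRNA and control siRNA samples. Pdia4 had 179 ± 9.40 CPM in YY1 siRNA samples and 189 ± 2.51 CPM in control siRNA samples, with a log2 fold change of -0.079 (SE 0.069). Calr had 401 ± 17.0 CPM in YY1 siRNA samples and 409 ± 11.8 CPM in control siRNA samples. Its membrane-bound relative Canx had 1127 ± 73.8 and 1112 ± 5.68 CPM in YY1 siRNA and control siRNA samples. The spread of Canx was wider with YY1 siRNA, where sample 4 was highest at 1196 CPM and sample 6 lowest at 1049 CPM.

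The sensors and their factor had fitted changes close to 0. Atf6 had 156, 153 and 144 CPM in YY1 siRNA samples 4, 5 and 6, and 156, 160 and 151 CPM in control siRNA samples 1, 2 and 3. Ern1 had 109, 130 and 116 CPM in YY1 siRNA samples and 119, 122 and 114 CPM in control siRNA samples. Both genes overlap between the groups, with YY1 siRNA sample 6 lowest for Atf6 and sample 4 lowest for Ern1. Xbp1, the transcription factor whose mRNA IRE1 splices, had 168, 152 and 151 CPM in YY1 siRNA samples and 161, 163 and 152 CPM in control siRNA samples. The log2 fold changes were -0.044 (SE 0.068) for Atf6, 0.0015 (SE 0.078) for Ern1 and -0.014 (SE 0.072) for Xbp1, with edgeR adjusted p of 0.8205, 0.9955 and 0.951. Counts per gene do not separate spliced from unspliced Xbp1, so IRE1 activity was not measured.

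Os9 stood apart within ER-associated degradation, below control in each YY1 siRNA sample. Os9 is a lectin that hands glycoproteins to the Sel1l and Syvn1 ligase complex. It lies on the minus strand of chromosome 10 from 127095650 to 127121131 (mm10), and no other annotated gene shares its exons. It had 121, 122 and 101 CPM in YY1 siRNA samples 4, 5 and 6, and 146, 143 and 136 CPM in control siRNA samples 1, 2 and 3. The groups did not overlap, and sample 6 was the lowest. The log2 fold change was -0.30 (SE 0.082, fold 0.81, 95% interval 0.716 to 0.916, edgeR unadjusted p 0.0028, adjusted p 0.254), so it did not pass over all genes. Without YY1 siRNA sample 6 the log2 fold change was -0.23.

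The other genes of this machinery did not share the position of Os9. Syvn1 (HRD1), the ubiquitin ligase of the complex, had 55.7, 56.1 and 51.4 CPM in YY1 siRNA samples 4, 5 and 6, against 50.7, 47.4 and 47.2 CPM in control siRNA samples 1, 2 and 3. The groups did not overlap, though samples 6 and 1 were close. Its log2 fold change was 0.17 (SE 0.072, 95% interval of the fold 1.01 to 1.252, edgeR unadjusted p 0.0352, adjusted p 0.425). Without YY1 siRNA sample 5, control siRNA sample 2 or control siRNA sample 3 the unadjusted p was 0.0905, 0.123 and 0.11 (edgeR adjusted p 0.461, 0.804 and 0.509). Syvn1 shares 91 exonic bases with Mrpl49 on the opposite strand, and whether counting used strand is not stated in the labels or file headers.

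Sel1l, the adaptor of Syvn1, had 183 ± 14.2 CPM in YY1 siRNA samples and 193 ± 16.2 CPM in control siRNA samples (SD, n = 3). Herpud1, a stress-induced scaffold of the same complex, had 42.9 ± 1.08 and 43.5 ± 1.07 CPM in YY1 siRNA and control siRNA samples. Edem1 and Edem2, which trim or sort mannose-bearing clients, had 238 ± 13.7 and 43.9 ± 1.96 CPM in YY1 siRNA samples, and 229 ± 7.74 and 43.4 ± 2.33 CPM in control siRNA samples. The derlins Derl1 and Derl2 had 183 ± 8.44 and 68.3 ± 5.497 CPM in YY1 siRNA samples, and 171 ± 8.13 and 65.8 ± 1.07 CPM in control siRNA samples. A stretch of Derl1 is near-identical to Gm35638, so its counts are less certain.

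**Figure D4:**
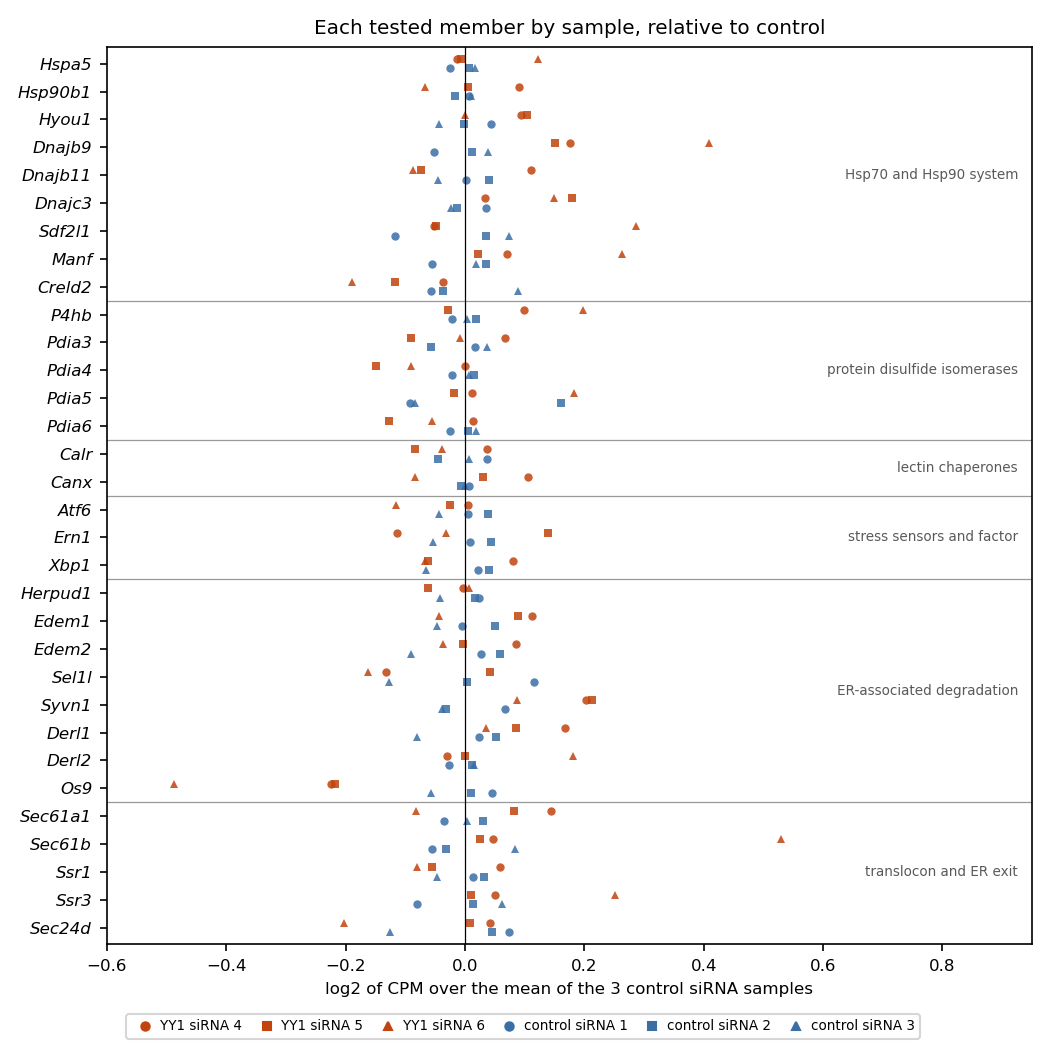
Each tested member in each sample as the log2 of its CPM over the mean of the 3 control siRNA samples (x axis), grouped by role. Orange points are YY1 siRNA samples and blue points control siRNA samples. Dnajb9 and Syvn1 lie to the right of all their control points and Os9 to the left, and YY1 siRNA sample 6 (orange triangles) gives the extreme points of Sec61b, Dnajb9 and Os9.

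Among translocon and ER exit genes, Sec61b stood apart in 1 sample. Sec61b, a small subunit of the channel through which new proteins enter the ER, had 76.7, 75.6 and 107 CPM in YY1 siRNA samples 4, 5 and 6, against 71.4, 72.6 and 78.7 CPM in control siRNA samples 1, 2 and 3. Only sample 6 lay outside the range of the control siRNA samples. The fitted log2 fold change was 0.22 (edgeR adjusted p 0.536, SE 0.13), and 0.030 without sample 6. The channel's large subunit Sec61a1 had 268, 257 and 229 CPM in YY1 siRNA samples and 237, 248 and 243 CPM in control siRNA samples, with sample 6 lowest. Ssr1 had 379 ± 19.8 CPM in YY1 siRNA samples and 386 ± 10.9 CPM in control siRNA samples, and Ssr3 had 1099 ± 101 CPM in YY1 siRNA samples and 1020 ± 50.9 CPM in control siRNA samples (SD, n = 3). Sec24d, a cargo adaptor of the COPII coat, had 229 ± 20.6 and 237 ± 17.3 CPM in YY1 siRNA and control siRNA samples.

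YY1 siRNA sample 6 was at an end of the range for 20 of the 32 members (62.5%), highest in 9 and lowest in 11, against 56.6% of all genes tested. YY1 siRNA sample 4 was the highest of all 6 samples in 10 members (31.2%), against 17.7% of all genes tested. It was the lowest in 2 members (6.25%), against 17.7% of all genes tested. The side that sample 6 took tended to go with exonic length, the union of a gene's annotated exons. Sample 6 minus the mean of samples 4 and 5, in log2 CPM, was 0.49 for Sec61b (1271 exonic bases) and 0.34 for Sdf2l1 (1108 bases), while Creld2 (1366 bases), the other member under 2000 bases, was at -0.11. It was -0.23 for Sec24d (6325 bases) and -0.20 for Sec61a1 (6732 bases). Across members Spearman's rho of this difference with exonic length was -0.405 (n = 32 genes, which share the same 3 libraries), and across 12037 tested genes it was -0.197. Of the members of 4000 bases or more, 4 of 15 lay higher in sample 6, against 41.8% of all genes of that length. Os9 (2629 bases, -0.27) and Dnajb9 (2549 bases, 0.24) are of like length and differ in sign. The share of counts in no gene was 7.87%, 10.7% and 11.3% in YY1 siRNA samples 4, 5 and 6, and 7.99% to 9.03% in control siRNA samples. With this share as a covariate the log2 fold change was 0.18 for Dnajb9 and -0.23 for Os9. The part of exonic length in the members' values was not tested.

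**Figure D5:**
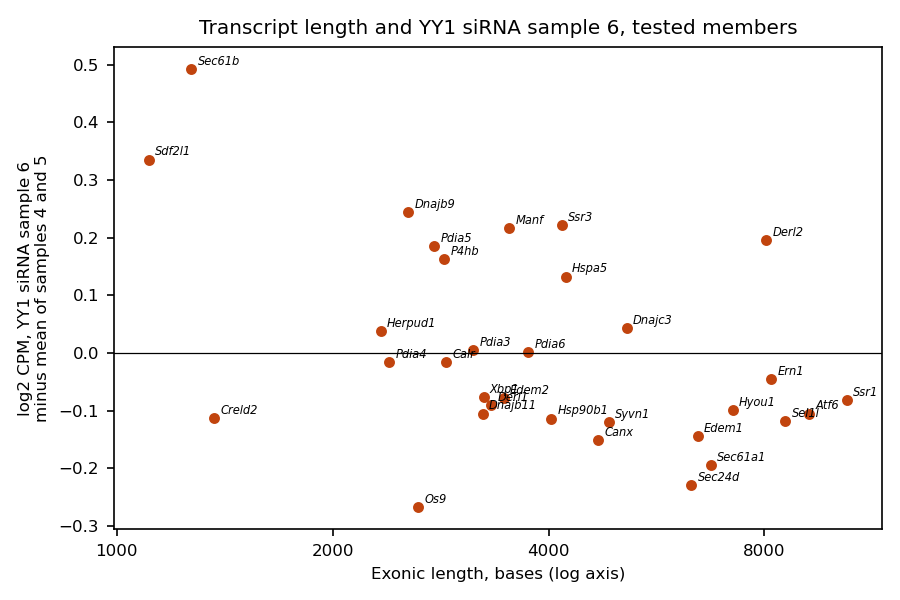
Exonic length of each tested member (x axis, bases, log axis) against log2 CPM in YY1 siRNA sample 6 minus the mean of YY1 siRNA samples 4 and 5 (y axis). Each point is 1 gene. Sec61b and Sdf2l1, both short, lie at the top, and the longest genes, other than Derl2, lie below 0.

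The rest of the pathway was read from a wider list of 125 ER proteostasis genes, of which 122 were tested. None passed over all genes with edgeR, DESeq2 or limma-voom. At an edgeR unadjusted p under 0.05 there were 15 (12.3%, against 10.8% of all genes), 10 higher and 5 lower with YY1 siRNA. DESeq2 gave 14 of the 122 at an unadjusted p under 0.05, against 924 of the 12148 genes tested. The median log2 fold change was 0.030, with 72 genes above 0 and 50 below. With the no-gene share as covariate 94 genes were above 0, and 8 had an edgeR unadjusted p under 0.05, 7 higher and 1 lower. The same counts over all genes were not taken at this setting, so a general shift cannot be told apart from one of the list. The groups did not overlap for 16 genes higher and 4 lower with YY1 siRNA, against 7.36% and 8.91% of all genes. Among the 15 genes, YY1 siRNA sample 6 was the highest of all 6 samples in 9 of the 10 higher and the lowest in 5 of the 5 lower. These genes were picked by a p-value from the same samples, which favours a YY1 siRNA sample at the end. Sample 6 was at an end in 56.6% of all genes tested, and the share among all genes with such a p was not taken. Without sample 6, 8 genes of the wider list had such a p, 6 higher and 2 lower. The lowest counts without a sample were 6 without control siRNA sample 2 and 7 without control siRNA sample 1, and the highest was 24 without YY1 siRNA sample 4. For these settings too the counts over all genes were not taken.

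In the PERK arm, Ppp1r15b, a regulatory subunit of the phosphatase that restores translation, had the smallest p of the wider list. It had 86.8, 100 and 92.3 CPM in YY1 siRNA samples 4, 5 and 6, against 75.9, 80.1 and 80.8 CPM in control siRNA samples 1, 2 and 3, and the groups did not overlap (log2 fold change 0.24, SE 0.074, edgeR adjusted p 0.296). The kinase gene Eif2ak3 had 33.8 ± 1.17 CPM in YY1 siRNA samples and 31.5 ± 1.45 CPM in control siRNA samples (SD, n = 3). Atf4, the transcription factor downstream of PERK, had 401 ± 25.8 and 405 ± 10.4 CPM in YY1 siRNA and control siRNA samples. Ddit3 (CHOP), a late stress factor, had 162 ± 12.9 CPM in YY1 siRNA samples and 156 ± 11.2 CPM in control siRNA samples. None of Eif2ak3, Atf4 and Ddit3 had an edgeR unadjusted p under 0.05, though the groups did not overlap for Eif2ak3. Over the 9 genes of this arm the groups did not overlap for 3, each higher with YY1 siRNA, against 7.36% of all genes tested. Besides Ppp1r15b and Eif2ak3 this was Atf3, a stress-induced transcription factor, at 22.4 ± 0.783 CPM in YY1 siRNA samples and 19.7 ± 1.03 CPM in control siRNA samples (SD, n = 3, log2 fold change 0.18, edgeR unadjusted p 0.0462, adjusted p 0.454). DESeq2 gave Atf3 an unadjusted p of 0.111. Of the 9 genes, 6 had a log2 fold change above 0 and 3 below, namely Atf4, Trib3 (-0.029) and Chac1 (-0.045).

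Among other folding and entry genes, Uggt2, a glycoprotein glucosyltransferase of low abundance, had 7.08, 10.9 and 11.9 CPM in YY1 siRNA samples 4, 5 and 6, against 6.45, 7.32 and 7.09 CPM in control siRNA samples 1, 2 and 3. Sample 4 lay among the control samples. Its fitted change was 0.51 on the log2 scale (SE 0.17, edgeR adjusted p 0.353), and without sample 4 it was 0.72 and the only one of the wider list to pass (edgeR adjusted p 0.04945). With the no-gene share added to the model it was 0.19 (edgeR adjusted p 0.736). Spcs1, a small signal peptidase subunit, had 84.5, 85.5 and 121 CPM in YY1 siRNA samples and 68.7, 71.4 and 83.8 CPM in control siRNA samples, with sample 6 far above the others. Selenok (94.8, 96.3 and 132 CPM in YY1 siRNA samples, against 75.2, 78.9 and 89.2 CPM in control siRNA samples), a selenoprotein of the degradation machinery, had the same shape. Sdf2, Cnpy2, Tmed2 and Fkbp7 completed the 10 smallest p-values together with Srp72 and Tmed10, with log2 fold changes of 0.27, 0.34, 0.31 and 0.26 (edgeR adjusted p 0.353 to 0.394).

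Srp72, a subunit of the signal recognition particle, and Tmed10, a cargo receptor of early secretory vesicles, lay below control like Os9. All 3 are shown because they hold the YY1 motif in their promoter windows and also had an edgeR unadjusted p under 0.05. They were thus picked partly by their change. Not all lower genes hold the motif, and the wider genes that hold it without such a p are named further on. The motif is in capitals below, within windows read on the strand of the gene.
Os9 (chr10:127121111-127121129, minus strand): cggagcggAAGATGGCGgc
Srp72 (chr5:76974713-76974737, plus strand): cctcctccAAGATGGCGagcggcgg
Tmed10 (chr12:85374750-85374774, minus strand): caatctccAAAATGGCGcggacggc

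Srp72 had 272, 243 and 223 CPM in YY1 siRNA samples 4, 5 and 6, against 298, 296 and 279 CPM in control siRNA samples 1, 2 and 3 (log2 fold change -0.24, SE 0.083, edgeR unadjusted p 0.0121, adjusted p 0.344). Tmed10 had 197, 184 and 177 CPM in YY1 siRNA samples, against 218, 221 and 208 CPM in control siRNA samples (log2 fold change -0.21, SE 0.071, edgeR unadjusted p 0.0102, adjusted p 0.322). In both genes the groups did not overlap and sample 6 was lowest. The motif of Os9, at bases 39 to 47 from the start, and that of Srp72, at 20 to 28, contain the annotated start codon, whose context resembles the motif. That of Tmed10 lies upstream, at -49 to -41. The motif was also found in Ssr4, Prkcsh, Nfya, Nfyc and Bfar of the wider list, with log2 fold changes of 0.32, -0.13, 0.049, -0.093 and 0.0027 and edgeR unadjusted p above 0.05 in each. No match was found for Srp68, Mbtps1 and Wfs1, the other wider genes lower at such a p under 0.05. Their log2 fold changes were -0.197, -0.148 and -0.197 (edgeR unadjusted p 0.0402, 0.0431 and 0.0493). Over all tested genes, 18.1% of the 590 with the motif in a window had an edgeR unadjusted p under 0.05 in either direction. This compares with 10.2% of the 8986 with a window that lacks it, and neither share was split into higher and lower genes. These shares were looked at after an excess among motif-bearing genes was already known from these data, and binding of YY1 was not measured.

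Members were also set side by side by whether their window held a match to a stress element. The 10 tested members with an ERSE or ERSE-II had a median log2 fold change of -0.0011, from -0.11 for Creld2 to 0.17 for Syvn1, with 5 above 0. The 17 tested members with a window and neither element had a median of 0.017, from -0.30 for Os9 to 0.25 for Dnajb9, with 10 above 0. In each of these sets the fitted changes lay on both sides of 0, and the part of the element was not tested.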

How the data were processed

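RNA from 3 YY1 siRNA and 3 control siRNA samples of KMWT1 cells was analysed from tables of read counts per gene symbol. The deposited counts are whole numbers, not normalized, and per the submitters' processing notes STAR 2.6.1a, edgeR 3.30.0 and mm10 were used. Counting program, annotation and strandedness were not given in the sources used here. Rows for reads in no gene (7.87% to 11.3%) and ambiguous reads (1.01% to 1.15%) were left out.

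The main test was edgeR's (4.0.16, in R 4.3.3) two-sided quasi-likelihood test with filterByExpr, TMM and robust dispersion, fitted on all genes, with Benjamini-Hochberg adjustment over 12148 genes and a threshold of 0.05. DESeq2 1.42.0 and limma-voom (limma 3.58.1) were alternatives, beside other scalings, filters, a no-gene covariate and leaving out each sample. Exonic lengths are unions of GENCODE M21 exons (mm10). Near-identical means 95% identity over 200 bases or more of annotated transcripts.

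The members and the wider list were chosen with earlier results of these data known. Per-sample values are given for Hspa5, Hsp90b1, Xbp1, Atf6, Ern1 and members with an unadjusted p under 0.05. From the wider list the 10 smallest such p-values, Eif2ak3, Atf4 and Ddit3 are named. Sec61b, Sec61a1, Canx, Creld2, Dcn, Cdh5, Atf3, Trib3, Chac1, Srp68, Mbtps1, Wfs1 and the motif-bearing genes are described further for values seen. One marker gene is not reported here.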

Additional observations from a re-analysis of the deposited data

Results flagged for a closer look

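The percentage of each library's counts outside any gene, left out of the members' tests, stood out in 2 libraries as higher than in any control. It was 10.7% for YY1 siRNA sample 5, 11.3% for sample 6 and 7.87% for sample 4 of that group, against control siRNA values of 7.99%, 8.64% and 9.03%. With this share as a covariate the log2 fold change of Dnajb9 was 0.18 (edgeR adjusted p 0.655), that of Os9 -0.23 (edgeR adjusted p 0.551) and that of Syvn1 0.21 (edgeR adjusted p 0.554).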

How the results depend on the processing

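No member passed the adjusted threshold under any of the 15 alternatives, and 17 of the 32 tested members kept their sign under each. Over the 480 recomputed member values, 37 took the opposite sign. The number of genes called over the whole table was 1 with the main settings, 7 with library size alone, 83 with no filter on low counts, 19 with DESeq2 and 22 with limma-voom sample weights. Leaving out 1 sample gave 1 to 41. The highest, 41, came when YY1 siRNA sample 4 was dropped, while dropping YY1 siRNA sample 6 gave 3 and dropping control siRNA sample 3 gave 2. For the wider list leaving out 1 sample gave 0 to 1, the 1 being Uggt2 without YY1 siRNA sample 4.

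The members that turned sign all had log2 fold changes near 0. With the no-gene share as covariate they were Hspa5 (-0.0055), Dnajb11 (0.065), Sdf2l1 (-0.043), Pdia3 (0.031), Calr (0.013), Ern1 (-0.054), Xbp1 (0.051), Derl2 (-0.012), Ssr1 (0.032) and Sec24d (0.038). With library size alone they were Hsp90b1 (-0.011), Canx (-0.0015), Ern1 (-0.019) and Edem2 (-0.0046). With sample weights they were Pdia5 (-0.0090) and Edem2 (-0.0093), and with limma-voom Ern1 (-0.0018). Leaving out 1 sample gave Hspa5 -0.017 to 0.066, Hsp90b1 -0.024 to 0.042, Dnajb11 -0.074 to 0.017, Sdf2l1 -0.056 to 0.13, Pdia3 -0.042 to 0.030 and Pdia5 -0.0090 to 0.14. It gave Canx -0.019 to 0.062, Ern1 -0.073 to 0.063, Xbp1 -0.058 to 0.0090, Herpud1 -0.040 to 0.0012, Edem2 -0.026 to 0.046, Derl2 -0.021 to 0.098 and Sec24d -0.11 to 0.019. The cause was not tested. No paired analysis was made, because the labels do not state whether any YY1 siRNA sample was paired with a control siRNA sample. Intervals from 3 samples a group limit what size of change could be seen, most for Sec61b.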
